A study of Mus musculus with 20 samples.

Results

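The liver genes of 3 families of secreted acute phase proteins were followed through a mouse model of acute inflammation: the orosomucoids (Orm1, Orm2 and Orm3), the pentraxins (Crp, Apcs and Ptx3) and the inter-alpha-trypsin inhibitor heavy chains (Itih1, Itih2, Itih3 and Itih4). They were taken by gene symbol, 10 of the 37681 genes in each count table, and 9 of the 10 passed the filter on low counts together with 15578 genes in all. Male C57/BL6 mice aged 12 weeks received 20 µg/kg of the cytokine IL-1β (5 mice) or saline (5 mice, the untreated group), by injection into the peritoneum, and their livers were taken 4 hours later. The RNA of each mouse was sequenced once on Illumina and once on Ion Torrent, giving 20 libraries, and the reads of each platform were aligned with GSNAP, with STAR, or with STAR followed by Bowtie2 for the unmapped reads, giving 6 count tables. The STAR table of the Illumina libraries, with totals of 10568530 to 11046256 counts per library, carries the values below unless another table is named. The question addressed by the treatment comparison is how each gene responded to IL-1β, and the question addressed by the other tables is whether that response depended on the platform or the aligner.

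The acute phase response is the change in plasma protein synthesis that follows infection or injury, and hepatocytes make most of the proteins involved. IL-1 acts on the liver through its receptor and NF-kB, and IL-6 through STAT3, while the C/EBP transcription factors act with both. Orosomucoids are plasma lipocalins that carry lipophilic molecules, and pentraxins are ring-shaped pattern recognition proteins that bind microbial and damaged surfaces and engage complement and Fc receptors. The heavy chains are liver products that are joined to bikunin, the protease inhibitor encoded by Ambp, and are transferred from it to hyaluronan in the extracellular matrix. The heavy chain of Itih4 lacks this link to bikunin.

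The 3 orosomucoid genes lie in a cluster on mouse chromosome 4 (build mm9, NCBIM37), all on the plus strand and each with 6 exons, with 1 annotated pseudogene (Gm11212) between Orm1 and Orm3 and 0 genes between Orm3 and Orm2. Orm1 (ENSMUSG00000039196) spans chr4:63005594-63009197, Orm3 (ENSMUSG00000028359) spans chr4:63017196-63020545 and Orm2 (ENSMUSG00000061540) spans chr4:63023483-63026912. Their coding sequences aligned without a large gap, with 89.9% identity between Orm1 and Orm2, 88.0% between Orm2 and Orm3 and 86.1% between Orm1 and Orm3. The identity decides how well a read can be told apart, so the stretch of 120 coding bases with the most differences is shown (coding bases 141 to 260 of Orm1 and Orm2 and 138 to 257 of Orm3, exonic). Capitals mark the 37 columns, of 110 in the whole alignment of 624 columns, where the 3 genes are not all alike.
Orm1: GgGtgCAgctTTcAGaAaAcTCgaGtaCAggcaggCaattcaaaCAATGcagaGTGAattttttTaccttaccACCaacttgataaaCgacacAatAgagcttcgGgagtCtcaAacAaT
Orm2: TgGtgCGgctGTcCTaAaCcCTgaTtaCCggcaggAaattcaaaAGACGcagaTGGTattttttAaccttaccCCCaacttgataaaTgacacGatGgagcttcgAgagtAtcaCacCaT
Orm3: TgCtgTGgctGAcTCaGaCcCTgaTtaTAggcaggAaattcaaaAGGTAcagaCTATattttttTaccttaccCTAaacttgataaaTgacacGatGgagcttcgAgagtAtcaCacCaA
Within this stretch Orm2 and Orm3 differed at 18 bases, Orm1 and Orm2 at 26 and Orm1 and Orm3 at 33. Over the whole transcripts, 17 of 651 windows of 125 bases in Orm1 (2.61%) occurred unchanged in Orm2, and 0 of 649 in Orm3 occurred in another coding transcript. With windows of 50 bases the shared part was 20.4% for Orm1, 21.8% for Orm2 and 3.59% for Orm3. Reads of the Illumina libraries were 125 bases long and paired, and those of the Ion Torrent libraries varied in length. Counts of Orm1 and Orm2, and for shorter reads of Orm3, are thus less certain where a read falls in a shared stretch. Orm3 shared 26 of 724 windows of 50 bases with Orm1 or Orm2, which had far more reads. How many reads fell in shared stretches was not tested.

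Orosomucoid reads rose in every IL-1β mouse. Orm1 had 30557, 41692, 31589, 30345 and 33886 counts in IL-1β mice ILB_9577 (mice are named as in the labels), ILB_9578, ILB_9579, ILB_9582 and ILB_9583, and 8375, 7584, 7569, 7579 and 10191 counts in saline mice UNT_9574, UNT_9575, UNT_9576, UNT_9580 and UNT_9584. In the same order of mice, Orm2 had 2558, 4132, 2829, 3286 and 3867 counts with IL-1β and 155, 179, 167, 55 and 176 with saline. Orm3 was far less abundant, with 22, 28, 24, 45 and 34 counts with IL-1β and 8, 18, 21, 8 and 9 with saline. After scaling, the groups did not overlap for any of the 3 genes, although for Orm3 the lowest IL-1β mouse was only 1.16 times the highest saline mouse. The log2 fold change of Orm2 was 4.69 ± 0.26 (SE), a 25.8-fold rise (edgeR's quasi-likelihood test with Benjamini-Hochberg adjustment, adjusted p = 4.86e-09). Orm1 rose 4.59-fold, a log2 fold change of 2.20 ± 0.14 (adjusted p = 1.55e-08), and Orm3 rose 2.70-fold, a log2 fold change of 1.43 ± 0.31 (adjusted p = 0.00145). Of the 15578 genes tested, 45.7% were called in either direction, 22.7% were called higher and 17.6% had every IL-1β mouse above every saline mouse. Orm2 ranked 58 among all genes tested by log2 fold change, Orm1 334 and Orm3 880. In these bulk samples, fewer cells of a type and less RNA per cell cannot be told apart.

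Because the orosomucoids rose by different factors, their make-up shifted. Orm2 supplied 1.74% ± 0.619 (SD, n = 5) of the summed orosomucoid counts in saline mice and 8.99% ± 1.04 (SD, n = 5) in IL-1β mice. Orm1 fell from 98.1% ± 0.679 (SD) to 90.9% ± 1.06 (SD), and both changes had the smallest two-sided exact permutation p that 5 against 5 mice allow, 0.00794 (adjusted over the 3 genes, 0.0119). The shares sum to 100%, so these changes of Orm1 and Orm2 nearly mirror each other and are not separate results. Orm3 stayed at or below 0.271% of the family in every mouse, and its difference of -0.0733 percentage points gave an exact permutation p of 0.143. Per 100 Orm1 reads there were 8.37 to 11.4 Orm2 reads in IL-1β mice and 0.726 to 2.36 in saline mice. The lowest Orm2 share among saline mice, 0.72%, belonged to mouse UNT_9580, which was the lowest saline mouse for Orm2 in 6 of the 6 tables. Leaving mouse UNT_9580 out gave a log2 fold change of 4.48 for Orm2, and leaving out mouse UNT_9584, the highest saline mouse for Orm1, gave 2.31 for Orm1.

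**Figure D1:**
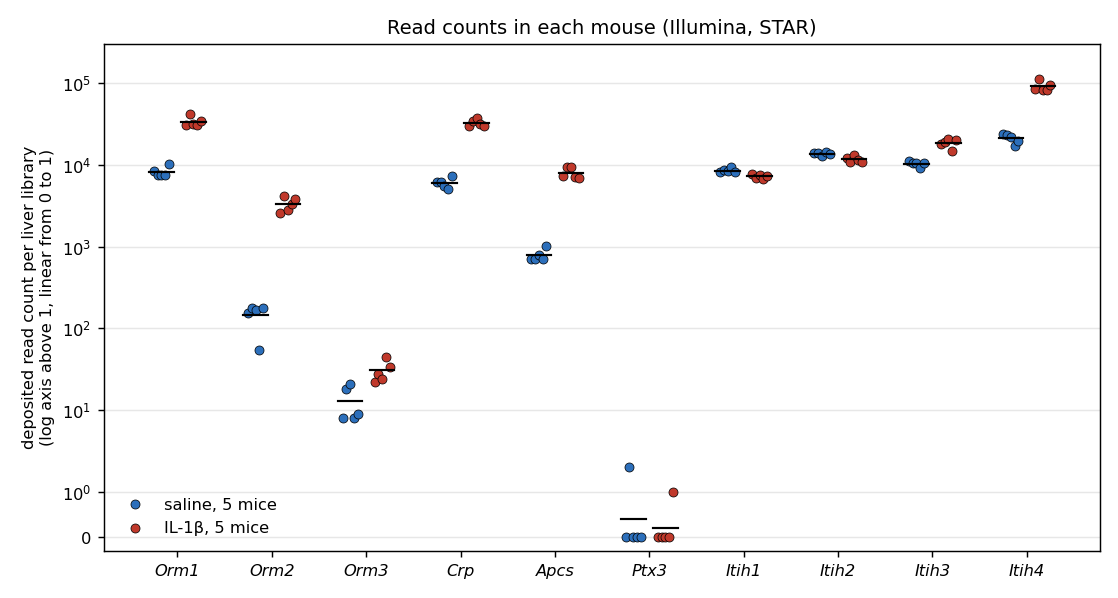
Deposited read counts of the 10 genes in each of the 10 mice (Illumina libraries, STAR), on a vertical axis that is logarithmic above 1 and linear from 0 to 1. Each point is a mouse, blue for saline and red for IL-1β, and each black bar is the mean of 5 mice. Orm2 moved from 55 to 179 counts up to 2558 to 4132, whereas Itih1 and Itih2 stayed near the same height and Ptx3 had 0 to 2 counts.

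Pentraxin genes split into 2 strongly raised liver genes and 1 gene at the floor of detection. Crp, the gene of C-reactive protein, lies at chr1:174628187-174630097 (plus strand, 2 exons), and Apcs, the gene of serum amyloid P component, at chr1:174824093-174825185 (minus strand, 2 exons). In mice, serum amyloid P component is the classic acute phase pentraxin of plasma, and C-reactive protein circulates at low levels. Crp had 29692, 33853, 37307, 31616 and 29942 counts in the IL-1β mice and 6092, 6079, 5456, 5093 and 7286 in the saline mice, in the order of mice given above. Apcs had 7252, 9486, 9453, 7007 and 6802 counts with IL-1β and 704, 710, 778, 695 and 1021 with saline. The groups stood well apart for both genes, the lowest IL-1β mouse being 4.16 times the highest saline mouse for Crp and 7.22 times for Apcs after scaling. Apcs rose 11.5-fold, a log2 fold change of 3.52 ± 0.16 (SE, edgeR adjusted p = 7.83e-10), and Crp rose 6.10-fold, a log2 fold change of 2.61 ± 0.13 (adjusted p = 1.94e-09). Per 100 Crp reads there were 11.6 to 14.3 Apcs reads in saline mice and 22.2 to 28.0 in IL-1β mice, ranges that did not overlap. Saline mouse UNT_9584 was the highest of its group for Apcs in 6 of the 6 tables, and without it the log2 fold change of Apcs was 3.67. Its lead was large on Illumina only. It had 94.9 CPM against 66.8 for the next saline mouse in the Illumina STAR table, and 57.3 against 52.8 in the Ion Torrent STAR table.

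Ptx3 codes for the long pentraxin that is made mainly outside hepatocytes, by macrophages, endothelial cells and fibroblasts, and lies at chr3:66023809-66029728 (plus strand), within the span of Veph1 on the other strand. It had 1 read in IL-1β mouse ILB_9583, 2 reads in saline mouse UNT_9575 and 0 in the other 8 libraries of the Illumina STAR table. No library of any of the 6 tables held more than 2 reads, so Ptx3 was not tested, and a count of 0 allows up to 3 reads in a library of this size. A response of Ptx3 was not detectable at this depth.

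Heavy chain genes responded unequally, with Itih4 and Itih3 rising and no call for Itih1 and Itih2. Itih4, Itih3 and Itih1 are neighbours on chromosome 14: Itih4 (ENSMUSG00000021922) at chr14:31699662-31715167 on the plus strand, then Itih3 (ENSMUSG00000006522) at chr14:31721759-31736946 and Itih1 (ENSMUSG00000006529) at chr14:31742366-31756475, both on the minus strand. The gaps are 6591 bases between Itih4 and Itih3 and 5419 bases between Itih3 and Itih1, and Itih2 (ENSMUSG00000037254) lies apart at chr2:10016218-10053023. Coding identity within the family ran from 50.1% for Itih2 and Itih4 to 62.2% for Itih1 and Itih3, and no window of 50 bases of any heavy chain transcript occurred in another gene's coding transcript. The shared stretches described for the orosomucoids were thus not found here.

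Itih4, the heavy chain known as an acute phase protein and a plasma kallikrein substrate, had 83654, 111043, 81319, 82959 and 95387 counts in IL-1β mice and 23747, 22850, 22040, 17099 and 19631 in saline mice. Itih3 had 18113, 18829, 20812, 14560 and 20268 counts with IL-1β and 11180, 10376, 10414, 9122 and 10649 with saline. The groups did not overlap for either gene. Itih4 rose 4.89-fold, a log2 fold change of 2.29 ± 0.13 (SE, edgeR adjusted p = 5.09e-09), and Itih3 rose 2.02-fold, a log2 fold change of 1.02 ± 0.11 (adjusted p = 4.40e-06).

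Itih1 and Itih2 code for the heavy chains that, with bikunin, make up inter-alpha-inhibitor itself. Itih1 had 7696, 6955, 7514, 6759 and 7307 counts with IL-1β and 8202, 8521, 8347, 9285 and 8135 with saline, and Itih2 had 12108, 10962, 13062, 11593 and 10676 with IL-1β and 13860, 13774, 12713, 14214 and 13681 with saline. As deposited, every Itih1 count was lower with IL-1β, as was the case for 21.4% of the genes tested, while the Itih2 counts overlapped. After TMM scaling both genes overlapped between the groups. The log2 fold change of Itih1 was -0.05 (95% interval -0.25 to 0.14, edgeR adjusted p = 0.674) and that of Itih2 was -0.05 (95% interval -0.25 to 0.15, adjusted p = 0.726). The deposited counts were lower with IL-1β by a median of -0.17 on the log2 scale over the 11929 genes with a mean of at least 10 counts, and TMM scaling moved this median to 0.00. A two-sided rank-sum test on the deposited counts, the test used in the study, called both genes lower, by -0.23 for Itih1 (adjusted p = 0.0317) and -0.22 for Itih2 (adjusted p = 0.0407), as it did 24.5% of all genes tested. With edgeR and no TMM scaling, a change of the scaling alone, neither gene was called (Itih1 -0.18, adjusted p = 0.0909, and Itih2 -0.18, adjusted p = 0.12). The cause of the general shift was not tested.

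The make-up of the heavy chain counts shifted towards Itih4. Itih4 supplied 39.2% ± 3.13 (SD, n = 5) of the summed Itih1 to Itih4 counts in saline mice and 70.6% ± 3.32 (SD, n = 5) in IL-1β mice. Itih2 fell from 25.6% ± 1.94 (SD) to 9.20% ± 1.41 (SD), Itih1 from 15.9% ± 1.62 (SD) to 5.69% ± 0.640 (SD) and Itih3 from 19.3% ± 0.823 (SD) to 14.5% ± 1.84 (SD). Each of the 4 shares had no overlap between the treatments and the smallest exact permutation p that the design allows, 0.00794, also after adjustment over the 4 genes. The shares sum to 100%, so these tests are not separate results. A rise of Itih4 lowers the shares of the others, and Itih1 and Itih2 had no call for their own levels. Itih3 thus lost share although its own counts rose. Itih1 and Itih2 kept a similar ratio to each other, 57.5 to 68.4 Itih1 reads per 100 Itih2 reads with IL-1β and 59.2 to 65.7 with saline, which overlapped.

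**Figure D2:**
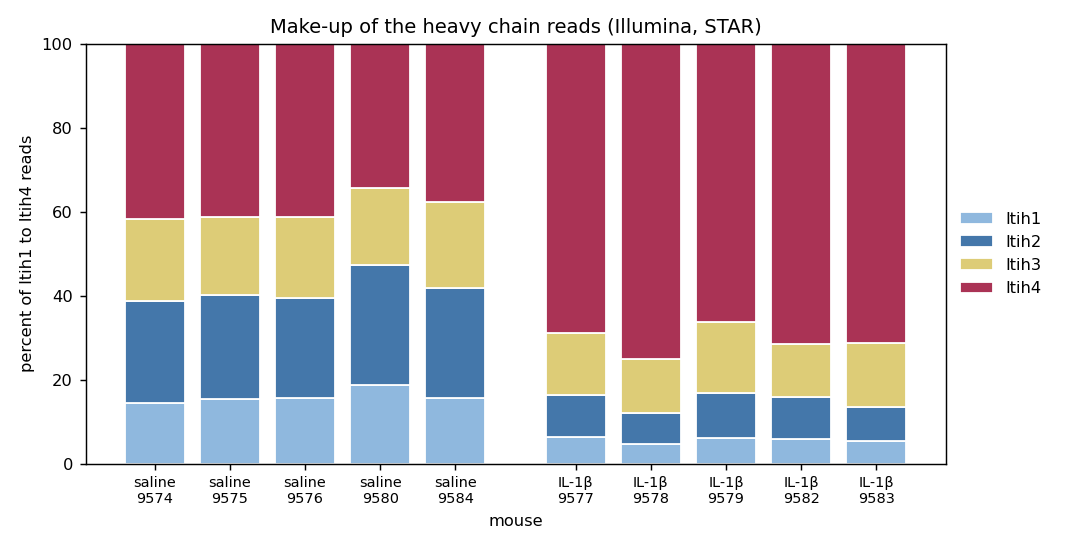
Percent of the summed Itih1 to Itih4 read counts that each gene supplied, 1 stacked bar per mouse (Illumina, STAR), 5 saline mice at left and 5 IL-1β mice at right. The Itih4 part lies between 34.4% and 41.7% in the saline mice and between 66.3% and 75.1% in the IL-1β mice.

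Over the members, 7 of the 9 tested members were called higher with IL-1β and 0 lower, where 22.7% of all genes tested were called higher and 22.9% lower. The other 2 were Itih1 and Itih2. At an unadjusted p below 0.05 the count of lower members was also 0 with edgeR, and DESeq2 and limma-voom gave 7 higher and 0 lower. The median log2 fold change was 2.20 over the 9 members and 0.00 over all genes tested. The 10 genes together took 0.626% ± 0.0344 (SD, n = 5) of all counts in saline mice and 1.94% ± 0.186 (SD, n = 5) in IL-1β mice.

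Levels between genes were compared as CPM per kilobase of exon, since the genes differ in length. In saline mice the order was Orm1 at 932 ± 164 (SD, n = 5), Itih4 at 552 ± 55.3, Itih2 at 357 ± 22.9, Crp at 309 ± 52.6, Itih3 at 248 ± 18.0, Itih1 at 225 ± 16.3, Apcs at 69.7 ± 15.3, Orm2 at 16.4 ± 5.90 and Orm3 at 1.44 ± 0.675. Neighbours overlapped from Itih2 down to Itih1, and the other neighbouring pairs did not. In IL-1β mice the order was Orm1 at 4275 ± 626 (SD, n = 5), Itih4 at 2700.0 ± 391, Crp at 1886 ± 200, Apcs at 802 ± 138, Itih3 at 502 ± 70.4, Orm2 at 425 ± 90.3, Itih2 at 345 ± 26.8, Itih1 at 217 ± 10.2 and Orm3 at 3.91 ± 1.23. Here Orm2 overlapped with both of its neighbours and the other pairs did not. Orm1 stood at rank 61 among all 15578 tested genes by this level in saline mice and at rank 18 with IL-1β, and Apcs moved from rank 710 to rank 73.

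Promoter sequence was examined for the 9 members that matched a symbol in the RefSeq promoter windows (build GRCm38.p6), Orm1 being the gene without one. In the 250 bases before the start, both strands were searched for a STAT motif (TTCNNNGAA), a C/EBP motif (TTGCNNAA), and 10-base NF-kB and HNF1 motifs. The C/EBP letters occurred in 4 of the 9 (Orm2, Orm3, Ptx3 and Itih2) and in 9.56% of all 32851 windows, and the STAT letters in 2 (Apcs and Itih4) and in 7.02% of all windows. The NF-kB and HNF1 letters occurred in 0 of the 9, and in 0.356% and 0.371% of all windows. The windows of Crp, Itih1 and Itih3 held none of the 4 motifs. The promoters of 5 genes are printed 5′ to 3′ because they set raised genes with a match beside Itih2, which was not called, with the match in capitals: Orm2 (chr4:63362199-63362448, plus strand), Orm3 (chr4:63355908-63356157, plus), Apcs (chr1:172895055-172895304, minus), Itih4 (chr14:30886226-30886475, plus) and Itih2 (chr2:10130684-10130933, minus).
Orm2: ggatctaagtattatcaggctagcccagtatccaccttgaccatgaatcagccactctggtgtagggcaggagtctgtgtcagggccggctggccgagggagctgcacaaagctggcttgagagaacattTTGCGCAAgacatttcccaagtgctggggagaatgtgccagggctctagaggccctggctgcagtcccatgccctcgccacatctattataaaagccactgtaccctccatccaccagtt
Orm3: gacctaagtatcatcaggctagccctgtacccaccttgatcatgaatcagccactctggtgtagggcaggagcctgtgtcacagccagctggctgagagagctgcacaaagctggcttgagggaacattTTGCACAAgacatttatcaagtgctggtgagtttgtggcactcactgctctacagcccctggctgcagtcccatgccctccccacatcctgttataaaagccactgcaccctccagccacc
Apcs: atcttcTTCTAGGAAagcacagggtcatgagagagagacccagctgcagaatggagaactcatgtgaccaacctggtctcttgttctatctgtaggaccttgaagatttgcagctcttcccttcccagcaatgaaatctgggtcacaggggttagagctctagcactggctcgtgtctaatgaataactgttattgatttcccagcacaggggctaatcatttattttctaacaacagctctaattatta
Itih4: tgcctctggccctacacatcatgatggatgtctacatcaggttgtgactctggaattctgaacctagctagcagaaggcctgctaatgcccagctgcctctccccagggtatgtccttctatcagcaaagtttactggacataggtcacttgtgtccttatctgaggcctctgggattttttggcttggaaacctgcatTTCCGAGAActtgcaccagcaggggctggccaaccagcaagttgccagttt
Itih2: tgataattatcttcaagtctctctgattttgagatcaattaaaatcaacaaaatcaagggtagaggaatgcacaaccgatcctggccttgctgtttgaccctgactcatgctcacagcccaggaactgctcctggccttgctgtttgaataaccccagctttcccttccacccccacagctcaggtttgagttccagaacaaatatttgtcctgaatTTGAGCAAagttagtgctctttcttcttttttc
The C/EBP match began 120 bases before the start in Orm2, 121 in Orm3 and 33 in Itih2, and the STAT match began 244 bases before the start in Apcs and 51 in Itih4. The Orm2 and Orm3 windows were 85.5% identical and held their match at nearly the same place, while Orm2 rose 25.8-fold and Orm3 2.70-fold. Over the 6 count tables the rise ran from 13.4-fold to 26.2-fold for Orm2 and from 2.70-fold to 4.42-fold for Orm3, whose counts were low. A match describes the letters of the window, and binding was not measured.

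The response was next followed across the other 5 tables, each scaled and fitted on its own. The same 7 members were called higher, and 0 lower, in each of the 6 tables, where the share of all genes called in either direction was 47.5% (Illumina GSNAP), 47.4% (Illumina STAR + Bowtie2), 42.1% (Ion Torrent STAR), 46.4% (Ion Torrent GSNAP) and 46.7% (Ion Torrent STAR + Bowtie2). The share called higher in these 5 tables was 23.7%, 22.9%, 20.3%, 22.5% and 22.8% in that order. The treatments did not overlap for these 7 members in any of the 6 tables, where 35.2%, 35.2%, 31.1%, 33.9% and 33.9% of all genes tested, in the same order, did not overlap in either direction. Log2 fold changes over the 6 tables ran from 2.60 to 2.65 for Crp, from 3.52 to 3.58 for Apcs, from 2.06 to 2.21 for Orm1, from 2.07 to 2.29 for Itih4 and from 0.81 to 1.02 for Itih3. They ran from -0.13 to -0.05 for Itih1 and from -0.07 to -0.02 for Itih2, with no call in any table. The tables share their mice, and those of a platform share their reads, so they are not independent repeats.

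In the Ion Torrent STAR table, Apcs had 4715 to 9088 counts with IL-1β (median 6934) and 602 to 730 with saline (median 666), and Crp had 21264 to 26991 (median 23963) and 3873 to 4952 (median 4555). Itih4 had 87849 to 113330 counts with IL-1β and 21191 to 30058 with saline. Neither platform showed overlap between treatments for these 3 genes. In a joint fit of the 20 STAR libraries with mouse as a block, the platform-by-treatment term was called for 0 of the 9 members, against 0.00642% of all genes tested (1 gene). The term was the difference of the Ion Torrent and Illumina log2 fold changes, and it was -0.18 ± 0.06 (SE) for Itih4 and -0.18 ± 0.07 for Itih3, both with unadjusted p-values below 0.05 and edgeR adjusted p-values of 0.653 and 0.690. In the STAR tables the term was 0.02 for Orm2 (95% interval -0.19 to 0.23), 0.02 for Crp (-0.15 to 0.19) and 0.03 for Apcs (-0.16 to 0.23).

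**Figure D3:**
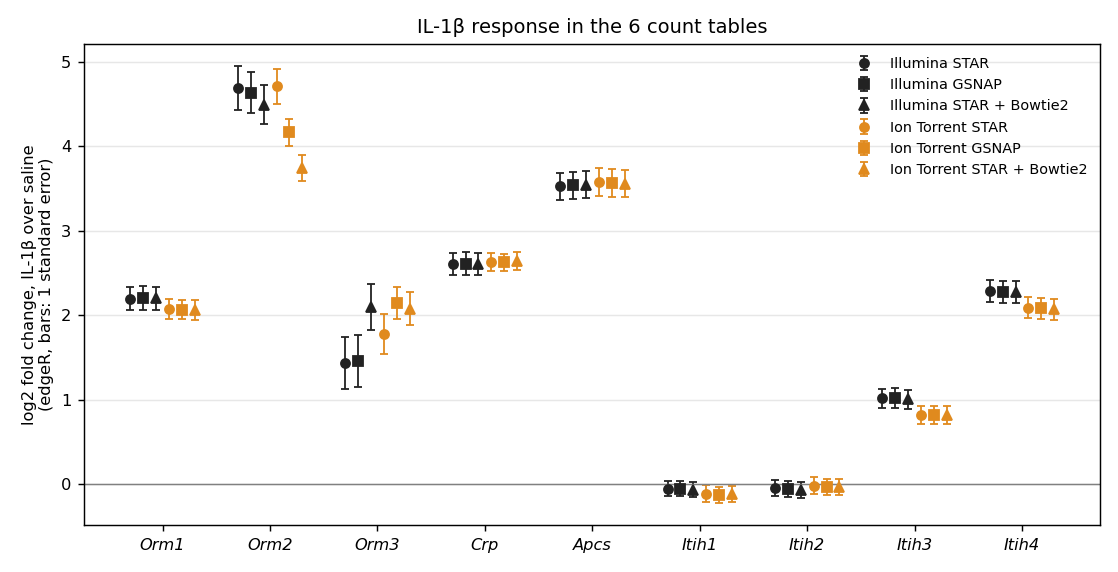
Log2 fold change of IL-1β over saline for the 9 tested genes in the 6 count tables (edgeR, bars are 1 SE), black for Illumina and orange for Ion Torrent, with circles for STAR, squares for GSNAP and triangles for STAR + Bowtie2. The symbols nearly coincide for Crp and Apcs, while Orm2 drops from 4.71 to 3.75 across the Ion Torrent aligners.

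Within a platform, the log2 fold changes of Orm2 and Orm3 moved most with the aligner among the 9 tested members, whereas that of Orm1 ran only from 2.20 to 2.21 on Illumina and from 2.06 to 2.08 on Ion Torrent. On Ion Torrent reads the Orm2 log2 fold change was 4.71 ± 0.20 (SE) with STAR, 4.17 ± 0.16 with GSNAP and 3.75 ± 0.15 with STAR + Bowtie2, that is 26.2-fold, 17.9-fold and 13.4-fold. On Illumina reads it was 4.69 ± 0.26, 4.64 ± 0.24 and 4.49 ± 0.23. The platform-by-treatment term of Orm2 was -0.77 ± 0.12 (SE) in the STAR + Bowtie2 tables (95% interval -1.01 to -0.53, edgeR adjusted p = 0.00249), where 0.077% of all genes tested were called. In the GSNAP tables it was -0.50 ± 0.12 and was not called (adjusted p = 0.193), where 0.0642% of all genes were called.

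The aligner moved Orm2 counts by a larger factor in saline than in IL-1β libraries of the Ion Torrent platform. In saline mice on Ion Torrent, Orm2 had 65 to 149 counts with STAR (median 140), 143 to 210 with GSNAP (median 203) and 278 to 422 with STAR + Bowtie2 (median 370). The STAR + Bowtie2 count was 2.52 to 4.28 times the STAR count in saline mice and 1.49 to 1.58 times in IL-1β mice, ranges that did not overlap. For Orm1 the same ratio was 1.18 to 1.27 in saline mice and 1.21 to 1.25 in IL-1β mice, and for Crp it was 1.42 to 1.47 and 1.46 to 1.52. In IL-1β mice the Orm2 ratio was near those of Crp and Apcs (1.39 to 1.5). It was above those of Orm1 and of the 4 heavy chains, which ran from 1.13 (Itih4) to 1.22 (Itih2). In saline mice the Orm2 ratio was above those of all these genes, Apcs being at 1.38 to 1.53. These ratios are of deposited counts, and the tables differ in depth. Saline mouse UNT_9574, for example, had 12563985 counts in the Ion Torrent STAR table and 16238096 in the STAR + Bowtie2 table. Unscaled, Orm1 gained a median of 1755 counts in saline mice and Orm2 a median of 235. In CPM the saline mean went from 634 to 606 for Orm1 and from 9.51 to 21.5 for Orm2. The IL-1β mean of Orm2 went from 250 to 288 CPM. On Illumina the corresponding Orm2 ratio of counts was 1.16 to 1.51 in saline mice and 1.07 to 1.10 in IL-1β mice. In CPM the Illumina mean of Orm2 went from 12.7 to 14.4 in saline mice and from 329 to 324 in IL-1β mice. Whether the further reads counted for Orm2 with STAR + Bowtie2 came from Orm2 transcripts was not tested.

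Orm3 counts also moved with the aligner. On Ion Torrent the STAR + Bowtie2 count of Orm3 was 2.16 to 3.12 times the STAR count in IL-1β mice and 1.63 to 2.48 times in saline mice, above the Orm1 range in both. On Illumina the ratio was 1.86 to 2.5 in IL-1β mice, but in saline mice, at 8 to 25 counts, it ran from 0.952 to 2.0 and overlapped that of Orm1, and GSNAP gave 0.909 to 1.21 in IL-1β mice. In IL-1β mice on Ion Torrent, Orm3 had 42 to 80 counts with STAR (median 64), 94 to 143 with GSNAP (median 121) and 131 to 175 with STAR + Bowtie2 (median 157). Its log2 fold change ran from 1.43 to 2.14 over the 6 tables, and it was called in each. The Orm3 share of the orosomucoid counts in saline mice was 0.157% ± 0.0868 (SD, n = 5) in the Illumina STAR table and 0.382% ± 0.0909 (SD, n = 5) in the Ion Torrent STAR + Bowtie2 table. In the Ion Torrent GSNAP table it was 0.3052% with saline and 0.3055% with IL-1β. Whether Orm3 counts held reads of Orm1 or Orm2 was not tested.

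The shift in share towards Orm2 was present in each table. Orm2 held 8.46% ± 0.799 (SD, n = 5) of the orosomucoid counts with IL-1β and 1.48% ± 0.409 (SD) with saline in the Ion Torrent STAR table, and 10.2% ± 0.759 (SD) and 3.42% ± 0.463 (SD) in the Ion Torrent STAR + Bowtie2 table. The gain ran from 5.81 to 7.25 percentage points over the 6 tables, with an exact permutation p of 0.00794 in each, the smallest that 5 against 5 mice allow.

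**Figure D4:**
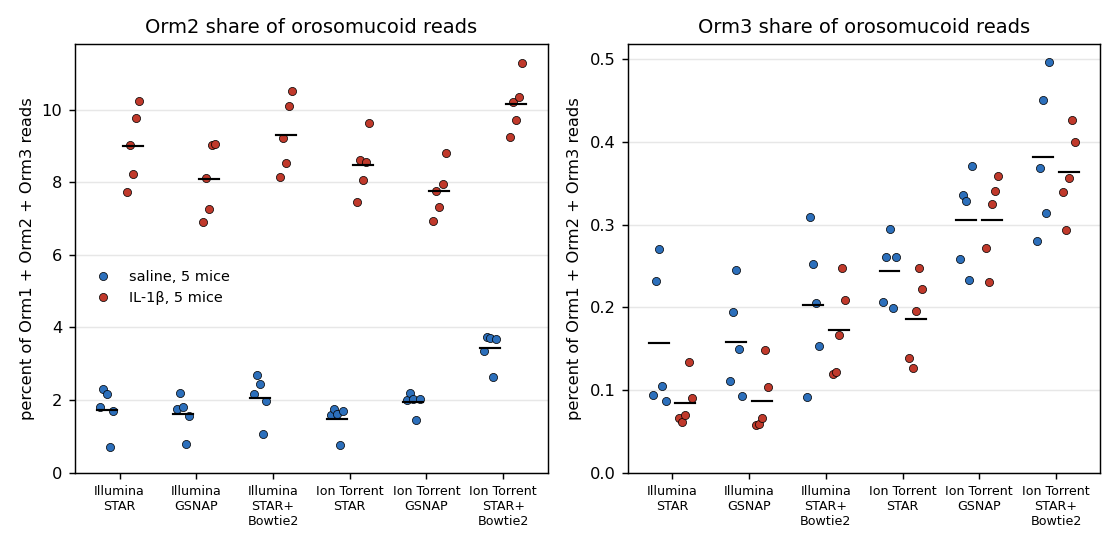
Percent of the summed Orm1, Orm2 and Orm3 counts that came from Orm2 (left) and Orm3 (right) in each mouse and table, blue for saline and red for IL-1β, with a black bar at the mean of 5 mice. Orm2 stays at or below 3.74% in saline mice and at or above 6.90% in IL-1β mice in each table, while the Orm3 points of the treatments overlap.

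Genes that work with these proteins were described from 4 lists, without a test of a list as a set. Of all genes tested, 22.7% were called higher and 22.9% lower, and the list counts are to be read beside these shares. Of 15 hyaluronan and inter-alpha-trypsin inhibitor partners, 9 were tested, 4 were called higher and 1 lower, with a median log2 fold change of 0.49. Vcan, a proteoglycan that binds hyaluronan, had 14 to 43 counts with IL-1β and 0 to 2 with saline (log2 fold change 4.87 ± 0.50, SE). Lyve1 and Cd44, which are hyaluronan receptors, rose by 1.49 ± 0.21 and 1.06 ± 0.19 on the log2 scale. Stab2, of the same list, was not called (-0.30 ± 0.18), and Hmmr was not tested. Itih5, a further heavy chain gene, fell by 0.56 ± 0.15 on the log2 scale. Ambp, which encodes bikunin, rose by 0.49 ± 0.10. Tnfaip6, whose product moves heavy chains onto hyaluronan, had 2 to 6 counts with IL-1β and 0 to 2 with saline and was not tested, and the hyaluronan synthases Has1, Has2 and Has3 had at most 2 counts in any of the 10 libraries.

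Of 16 pentraxin relatives, ligands and receptors, 12 were tested, 4 were called higher and 1 lower, with a median log2 fold change of 0.10. Over all genes tested, 45.7% were called in either direction, 22.7% higher and 22.9% lower. Fcgr2b, the inhibitory Fc receptor, fell from 305 to 437 counts with saline to 122 to 210 with IL-1β (edgeR adjusted p = 6.84e-05). The activating receptors Fcgr1 and Fcgr3 rose by 0.90 ± 0.32 (SE) and 0.62 ± 0.22 on the log2 scale, with overlap between the groups for both. Fcgr4, of the same list, was not called (-0.14 ± 0.29). The calls of these 2 receptors were not stable: Fcgr1 lost its call with any of 6 of the 10 mice left out (adjusted p up to 0.088) and Fcgr3 with any of 5 (up to 0.0898), so that without saline mouse UNT_9576 or IL-1β mouse ILB_9578 the list had 2 genes higher, and without ILB_9578 it had 2 lower. Mbl1, a mannose-binding lectin, rose by 0.59 ± 0.09, whereas Mbl2, of the same list, was not called (-0.23 ± 0.13). The complement C1q genes that pentraxins engage were not called, with log2 fold changes of 0.03 ± 0.25 for C1qa, 0.16 ± 0.18 for C1qb and -0.16 ± 0.21 for C1qc. Of 7 other lipocalins, 6 were tested, 2 were called higher and 2 lower, with a median log2 fold change of -0.23. Lcn2, the iron siderophore binder lipocalin 2, had 40160 to 50420 counts with IL-1β and 31 to 87 with saline, a log2 fold change of 9.90 ± 0.26. Rbp4, the plasma retinol carrier, fell by 0.70 ± 0.11 on the log2 scale and C8g by 0.28 ± 0.11. C8g kept its call with only 2 of the 10 mice left out in turn (adjusted p up to 0.12), and the list had 1 gene lower without any mouse but UNT_9574, ILB_9583 and UNT_9584, each of which left 2.

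Of 17 genes of IL-1, IL-6 and C/EBP control of acute phase genes, 16 were tested, 12 were called higher and 3 lower, with a median log2 fold change of 0.87. The shares over all genes tested were 22.7% higher and 22.9% lower. Il1r1, the receptor of the injected cytokine, had 7446 to 10068 counts with IL-1β and 670 to 1329 with saline, a log2 fold change of 3.46 ± 0.18 (SE). Socs3, the feedback inhibitor of IL-6 signalling, rose by 2.30 ± 0.38, Cebpd by 2.17 ± 0.26 and Stat3 by 1.81 ± 0.13. The 3 genes called lower were Cebpa (-0.85 ± 0.17, with overlap between the groups), Il1rap (-0.68 ± 0.10) and Nr3c1 (-0.65 ± 0.11). Il6 had at most 3 counts in any of these 10 libraries and was not tested. The edgeR adjusted p-values of the genes named from the 4 lists as rising or falling ran up to 0.0477 (C8g).

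**Figure D5:**
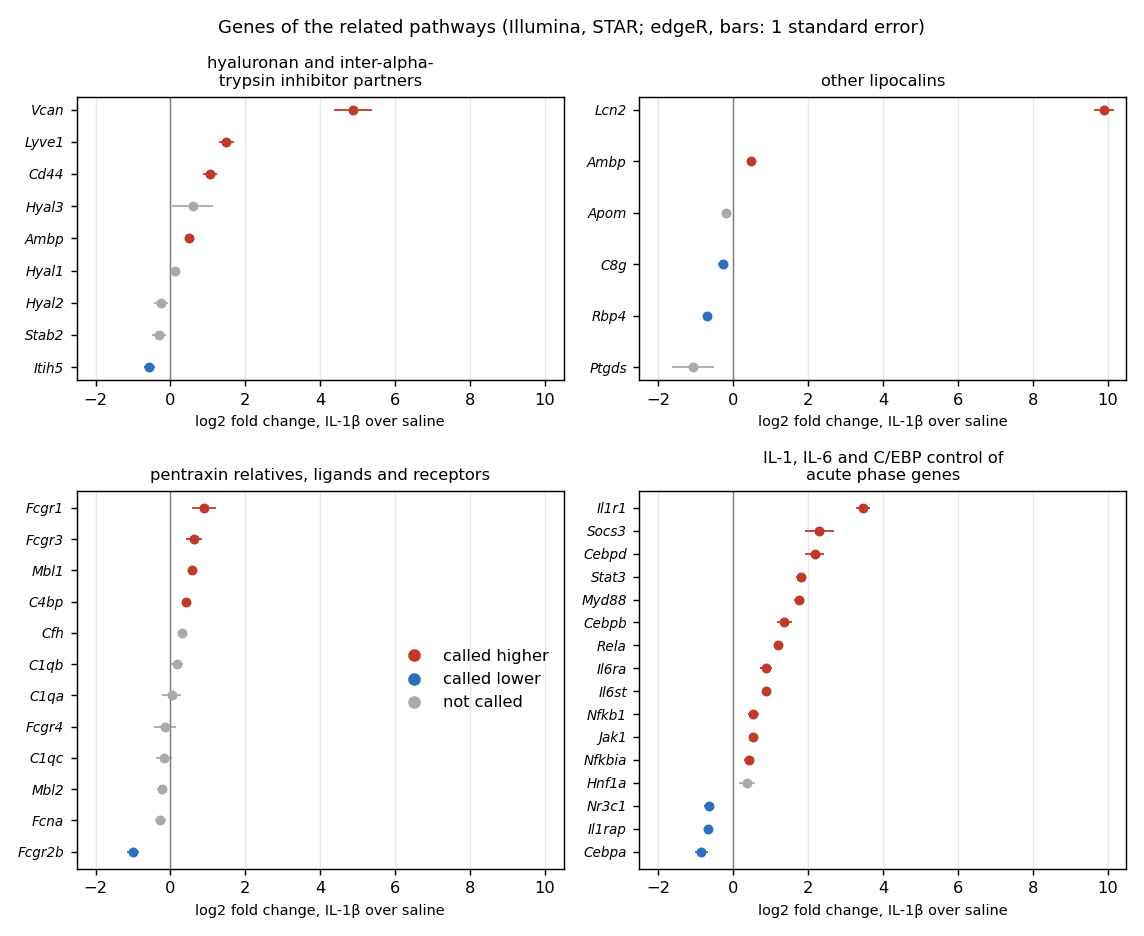
Log2 fold change of IL-1β over saline (horizontal axis, bars are 1 SE) for each tested gene of 4 lists in the Illumina STAR table, red for called higher, blue for called lower and grey for not called. Lcn2 at 9.90 and Vcan at 4.87 lie far to the right of the other genes in their lists.

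Markers of cell types were read in the same fit, where 22.7% of all genes tested were called higher and 22.9% lower. Of 7 tested hepatocyte markers 0 were called higher and 4 lower, and their summed level was 73380 to 82350 CPM with IL-1β and 94700 to 114800 CPM with saline. The 4 were Cps1, Cyp2e1, Alb and Asgr1, with log2 fold changes of -0.89, -0.67, -0.53 and -0.39. Ttr (-0.31), Apoa1 (-0.30) and Apob (0.37) were not called. Alb made up most of the sum, with 505223 to 598518 counts with IL-1β and 805525 to 966350 with saline. All 5 tested neutrophil markers, of 9 listed, were higher, and the summed level of the 9 was 42.7 to 97.4 CPM with IL-1β and 0.80 to 3.08 CPM with saline. S100a9 had 221 to 506 counts with IL-1β and 4 to 16 with saline, and Ngp had 8 to 34 counts with IL-1β and 0 in each saline library. Summed levels of the Kupffer cell and macrophage markers were 73.9 to 172 CPM with IL-1β and 133 to 232 CPM with saline (1 of 8 higher, 3 lower), and those of the endothelial markers were 128 to 197 and 145 to 224 CPM (2 of 8 higher, 4 lower). Stellate and fibroblast markers summed to 179 to 296 and 266 to 339 CPM (0 of 7 higher, 2 lower), and lymphocyte markers to 1.01 to 2.48 and 1.87 to 4.83 CPM (0 of 5 tested higher, 1 lower). No marker was at 0 in all 10 libraries. The part of these cell type markers in the changes of the members was not tested.

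The genes most like the members were found among 7802 genes with a mean of at least 100 counts, by the root mean square difference of log2 CPM profiles over the 10 Illumina libraries, each centred on its own mean. For the summed orosomucoids they were Hpx (0.141), Pnp (0.143) and Fga (0.146), with log2 fold changes of 2.32, 2.26 and 2.16. For Itih4 they were Slc11a2 (0.135), Hpx (0.147) and Ube2s (0.156), so Hpx, the gene of the haem carrier hemopexin, stood in both. For Apcs they were Tacc2 (0.236), Upp1 (0.288) and Alpk1 (0.289), with log2 fold changes from 3.55 to 3.67, and for Itih1 they were Rpl31 (0.0558), Phb (0.0624) and Ppia (0.0640), with log2 fold changes from -0.09 to -0.02. The profiles include the difference between the treatments, so similar fold changes follow from the way these genes were chosen.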

How the data were processed

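Liver RNA of 10 mice (5 IL-1β, 5 saline, grouped by the labels) was sequenced on both platforms. The authors deposited whole-number read counts per gene, 60 columns in 6 tables. Per the study's methods and the labels, reads were aligned to mm9 with STAR 2.5.1b, GSNAP or STAR plus Bowtie2 2.2.9, rRNA and mitochondrial reads were removed, and the libraries of a table were re-sampled to the same number of gene-mapping reads and counted on Ensembl gene models. Each table was normalized separately, so tests stay within a table, apart from the platform-by-treatment fit.

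Genes that reached 5 counts in a minimum of 5 of the 10 libraries of any table were tested with edgeR 4.0.16 (R 4.3.3, quasi-likelihood, TMM) and called at an adjusted p below 0.05, with Benjamini-Hochberg adjustment over all 15578 genes. CPM uses TMM-scaled library sizes. Ranges of samples described as overlapping refer to CPM unless counts are named. The 95% intervals come from the SE and the t distribution of that test. Family shares were compared by two-sided exact permutation tests. The mouse number pairs the platforms, since both libraries of a mouse came from the same RNA. The correlation of their deviations from the group means was 0.592 to 0.735 for 9 mice and 0.248 for mouse UNT_9584.

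Alternatives were the other tables, DESeq2 1.42.0, limma-voom (limma 3.58.1), the rank-sum test, other scalings and filters, no replicate block, and leaving out each mouse. On simulated data with 200 changed genes among 15578, edgeR recovered 200 with 9 false calls. The rank-sum test recovered 0 of these 200 genes, with 0 false calls. Recovery where as many as 45.7% of genes are called, as in the Illumina STAR table, was not tested. Gene spans and exon lengths came from GENCODE vM1 (NCBIM37), and coding sequences were compared with Biopython 1.88. The members, lists and motifs were chosen with earlier results of these data known. Named genes are all members, up to 4 called genes per list by size of log2 fold change, and the 3 genes most like 4 chosen profiles. Others, chosen after their values were seen, are given for their role or as list genes that fell or were not called. Intervals and the floor of 3 reads cover counting error or the spread between mice and no other error.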

Additional observations from a re-analysis of the deposited data

Results flagged for a closer look

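Chance marks about 1 in 20 groups as holding an outlying mouse, and 18 groups of 5 mice were examined (9 genes, each treatment, log2 CPM of the Illumina STAR table). In 3 of them the gap between an extreme mouse and its nearest neighbour was unusually large relative to the whole range of the group. Saline mouse UNT_9584 was the highest for Orm1, with a gap of 0.799 of the range, and for Apcs, with 0.729. The Ion Torrent library of the same RNA did not show such a gap. With STAR it had 677 CPM for Orm1 and 57.3 for Apcs, against 671 and 52.8 in saline mouse UNT_9580, the next highest. Saline mouse UNT_9580 was the lowest for Orm2, with 0.799. Without mouse UNT_9584 the log2 fold change was 2.31 for Orm1 and 3.67 for Apcs, and without mouse UNT_9580 it was 4.48 for Orm2, each still called. The IL-1β effect on Orm2 differed between the platforms in the STAR + Bowtie2 tables by a test of the difference itself, the Ion Torrent log2 fold change being lower by -0.7732 (edgeR with mouse as a block, adjusted p = 0.00249). It lay between -0.87 and -0.59 when each mouse was left out in turn, the value nearest to 0 being that without mouse UNT_9580, and it was -0.76 with DESeq2. These 3 checks of the term were chosen after seeing the data.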

How the results depend on the processing

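The counts of 7 members higher and 0 lower held with the other 5 tables, DESeq2, limma-voom, other scalings and filters, and each mouse left out (7 to 7 higher, 0 to 0 lower). The rank-sum test on deposited counts gave 2 lower members, Itih1 and Itih2. Without the replicate block, 0 members had a platform-by-treatment term called, as with it, but the pairing mattered for Orm2 in the STAR + Bowtie2 tables, where the term was -0.7561 without the block and lost its call (adjusted p = 1.0). The STAR + Bowtie2 tables gave 1 member with a called term (Orm2). Uncalled terms changed sign with the aligner: Orm2 to -0.4985 (GSNAP) and to the called -0.7732, Orm3 to -0.0111 (STAR + Bowtie2), Crp to -0.0012 (GSNAP), and Apcs to -0.0145 (GSNAP) and -0.0289 (STAR + Bowtie2). They also changed sign when a mouse was left out, between -0.0763 and 0.1108 for Crp, -0.0368 and 0.1071 for Apcs, -0.0588 and 0.0123 for Itih1, and -0.0108 and 0.0964 for Itih2. The Orm3 share difference was 0.000265 points in the Ion Torrent GSNAP table and ran from -0.0910 to -0.0450 points with a mouse left out, its exact p being 0.0317 without mouse ILB_9582. Over the other tables and without TMM scaling, 3 to 4 partners were higher and 1 to 3 lower (3 in each Ion Torrent table), 2 to 5 pentraxin relatives higher and 1 to 3 lower (2 and 3 without TMM scaling), 1 to 2 lipocalins higher (1 with Ion Torrent STAR + Bowtie2) and 2 to 3 lower, and 11 to 12 control genes higher and 3 lower. With a mouse left out, 2 to 4 pentraxin relatives were higher (2 without mouse UNT_9576 or ILB_9578) and 1 to 2 lower, and 1 to 2 lipocalins were lower. The causes were not tested. Orm3 is limited by its depth and by the stretches it shares with Orm1 and Orm2, and the low list genes by their depth.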
